A study of Mus musculus with 8 samples.

Results

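The cells described here are Gata1+ Gata2+ precursors of the mouse bone marrow, a small population that carries transcripts of both GATA factors. They hold few or no UMIs of Car1 (erythroid), Pf4 (megakaryocytic), Ms4a2 (mast cell), Mpo (myeloid), Hlf (stem cell) and Flt3 (lymphoid). Members were chosen by their UMI counts of 8 genes. A cell was a member if it held at least 1 UMI of Gata1 and 1 of Gata2, fewer than 2 of Car1, fewer than 3 of Pf4, fewer than 5 of Mpo and none of Ms4a2, Hlf or Flt3. In all, 669 of the 46159 cells that passed the cell filters were members (1.45%), out of 59465 deposited barcodes. Lineage-negative, c-Kit+ bone marrow cells had been profiled by droplet single-cell RNA sequencing in 8 libraries, each from 1 wild-type mouse. The young mice were 14 weeks of age and the middle-aged mice 50 weeks, the old male was 78 and the old female 79 weeks, and the very old mice were 95 weeks, with 1 male and 1 female per group and no treatment given. Since the very old libraries have another series number in their names than the other 6, effects of that series and of the highest age cannot be told apart. Unless stated otherwise, values in lists of 8 follow the order young male, young female, middle-aged male and female, old male and female, very old male and female.

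GATA1 and GATA2 are zinc finger transcription factors that bind the same short DNA motif. GATA2 acts in stem cells and early progenitors, whereas GATA1 drives erythroid, megakaryocytic, mast cell and eosinophil differentiation, and the replacement of GATA2 by GATA1 at shared sites accompanies erythroid maturation. Cells with both factors are therefore looked for among the bipotent precursors of red cells and platelets.

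The library totals ranged from 83062003 to 150135029 UMIs, and members contributed between 634360 and 1311808 UMIs per mouse. There were 53, 85, 85, 105, 74, 108, 55 and 104 members in the 8 mice. Their median depth was between 8106 and 12053 UMIs, and the median share of UMIs from mitochondrial genes was between 3.88% and 5.04%, highest in the 2 very old mice. All filtered cells had median depths of 11647 to 18376 UMIs, above that of the members in each mouse. The rule counts raw UMIs, so its upper limits are easier to meet at low depth and its lower limits harder. Pairs of libraries shared between 6 and 27 barcodes, and no barcode of a member occurred in a second library. A total of 21 members held over 2 times the median UMIs of the members of their mouse.

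Gata1 was detected at the lower limit of the rule in most members. A single Gata1 UMI was found in 410 of the 669 cells (61.3%) and 3 or more in 89 cells, whereas 341 cells (51.0%) held 3 or more UMIs of Gata2. Car1, carbonic anhydrase 1 of the erythroid lineage, had 1 UMI in 292 members and 0 in the others. Pf4, a platelet chemokine, was at 0 in 458 members (68.5%). Just outside the rule lay 182 cells that failed only by holding 2 UMIs of Car1 and 31 cells that failed only by holding 3 UMIs of Pf4. These counts describe the rule and carry no test.

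Members were compared with 4 neighbouring populations. Car1-high cells (4918 cells) met every limit apart from Car1, Pf4-high cells (565) every limit apart from Pf4, and Hlf+ cells (229) every limit apart from Hlf, a stem cell transcription factor. Mpo-high cells (11754), marked by the myeloperoxidase of the granulocyte lineage, held no UMI of either GATA gene and served as the population that should lack the genes of interest. Median depth per mouse was 14817 to 32344 UMIs in Car1-high, 9952 to 17114 in Pf4-high, 10159 to 18002 in Hlf+ and 15438 to 25766 in Mpo-high cells. The Hlf+ cells numbered 10 in the young male, 24 in the young female and at most 40 in any mouse, so their levels per mouse rest on few cells.

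The identity of the members was examined with marker genes, in CPM, the UMIs of a gene summed over the cells of a population and scaled to the same total in each mouse. Apoe, which encodes apolipoprotein E and was not used by the rule, lay between 1506 and 2304 CPM in members, with a mean of 2026 CPM. Its mean was 775 CPM in Car1-high, 776 CPM in Pf4-high, 1555 CPM in Hlf+ and 61.5 CPM in Mpo-high cells. With every cell thinned to 5000 UMIs, between 96.7% and 100% of members had an Apoe UMI in each mouse, against 11.6% to 26.1% of Mpo-high cells.

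Early genes of both lineages were present at low levels. Klf1, the erythroid Krüppel-like factor, lay between 58.6 and 115 CPM in members and between 239 and 287 CPM in Car1-high cells. The same gene reached only 7.3 to 18.8 CPM in Pf4-high cells. Itga2b, the integrin chain CD41 of megakaryocytes and early progenitors, showed the opposite order. Its level was 99.9 to 173 CPM in members, 341 to 589 CPM in Pf4-high cells and 4.8 to 23.7 CPM in Car1-high cells. Epor, the erythropoietin receptor gene, lay between 18.4 and 42.6 CPM in members.

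Gene lists were then summed without the genes of the rule. Members held 1063 to 1551 CPM of 25 erythroid genes, against 3869 to 5746 CPM in Car1-high cells. For 24 megakaryocyte genes the sums were 581 to 785 CPM in members and 2456 to 4014 CPM in Pf4-high cells. Members lay below each of these neighbours in the neighbour's own lineage genes, as a description, since both populations were picked on genes of the same lineages. The 12 basophil and mast cell genes summed to 86.6 to 202 CPM in members and 7.2 to 21.3 CPM in Car1-high cells. In Pf4-high cells they summed to 11.5 to 44.6 CPM, and in Hlf+ cells to 49.0 to 129 CPM. Cpa3, a mast cell protease gene, lay between 60.4 and 129 CPM in members, and in the middle-aged female a single cell held 95 of its 136 UMIs. Mpo-high cells held 90.0 to 195 CPM of the same list. The 12 stem cell genes summed to 337 to 452 CPM in members and 496 to 735 CPM in Hlf+ cells, and the 17 granulocyte-monocyte genes to 227 to 481 CPM in members and 13026 to 24464 CPM in Mpo-high cells. In members, 13 lymphoid genes summed to 28.5 to 44.4 CPM, 4 eosinophil genes to at most 9.15 CPM and 6 stromal and endothelial genes to at most 7.64 CPM. The 10 macrophage genes summed to 107 to 149 CPM in members and to 109 to 243 CPM in Mpo-high cells. Lyz2, the lysozyme gene of macrophages, monocytes and granulocytes, accounted for 81.1 to 118 CPM of this sum in members, whereas the 7 macrophage markers C1qa, C1qb, C1qc, Vcam1, Adgre1, Mrc1 and Cd5l together held 4.24 to 15.7 CPM.

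**Figure D1:**
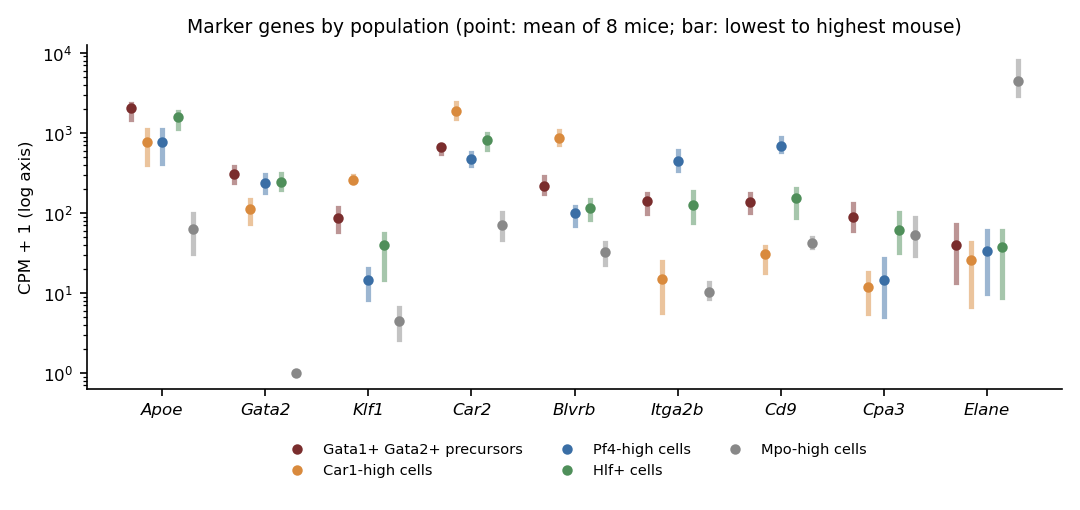
Expression of marker genes (CPM + 1, log axis) in the members and 4 neighbouring populations, where points are means of 8 mice and bars reach from the lowest to the highest mouse. Members have the highest mean of Apoe (2026 CPM) and lie between Car1-high and Pf4-high cells for Klf1 and Itga2b.

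Single members differed in which lineage genes were detected. At 5000 UMIs per cell, genes at these levels are often missed by sampling. A count of 0 therefore does not show that a gene is absent, and the groups below do not show distinct kinds of cells. Among the 612 members that could be thinned to 5000 UMIs, 74 (12.1%) held UMIs of both Klf1 and Itga2b, 117 (19.1%) of Klf1 alone, 205 (33.5%) of Itga2b alone and 216 (35.3%) of neither. The share with a Klf1 UMI was 52.0%, 38.8%, 25.6%, 27.4%, 32.9%, 36.5%, 26.4% and 17.8% in the 8 mice. Both young mice lay above all 6 others, and only 1.1% to 2.7% of thinned Mpo-high cells had a Klf1 UMI. The difference between the 4 older (old and very old) and the 2 young mice was -17.0 percentage points (exact two-sided permutation test, p = 0.133, adjusted p = 0.583 over 35 measures of composition). The share with an Itga2b UMI was 44.0%, 41.2%, 50.0%, 51.6%, 38.6%, 43.8%, 56.6% and 41.1%, and older and young mice overlapped.

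Members made up 1.04%, 1.2%, 1.70%, 2.14%, 1.42%, 1.79%, 0.989% and 1.43% of the filtered cells. The middle-aged female had the highest share, followed by the old female, and the older mice overlapped with the young. The mean was 1.41% ± 0.327 (SD, n = 4) in older and 1.12% ± 0.117 (n = 2) in young mice, a difference of 0.287 percentage points (exact two-sided permutation test, p = 0.333). With 4 against 2 mice, this test cannot give a p below 0.0667. Within each age the female had the larger share, by 0.165 to 0.443 percentage points, without a test, but not in the young mice after thinning or in the very old mice under a stricter rule of 2 or more UMIs of both Gata1 and Gata2. When every cell was thinned to 5000 UMIs before the rule was applied, the shares became 1.57%, 1.35%, 1.35%, 2.06%, 1.23%, 1.67%, 1.02% and 1.07%, and the difference turned to -0.216 percentage points (exact p = 0.400).

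**Figure D2:**
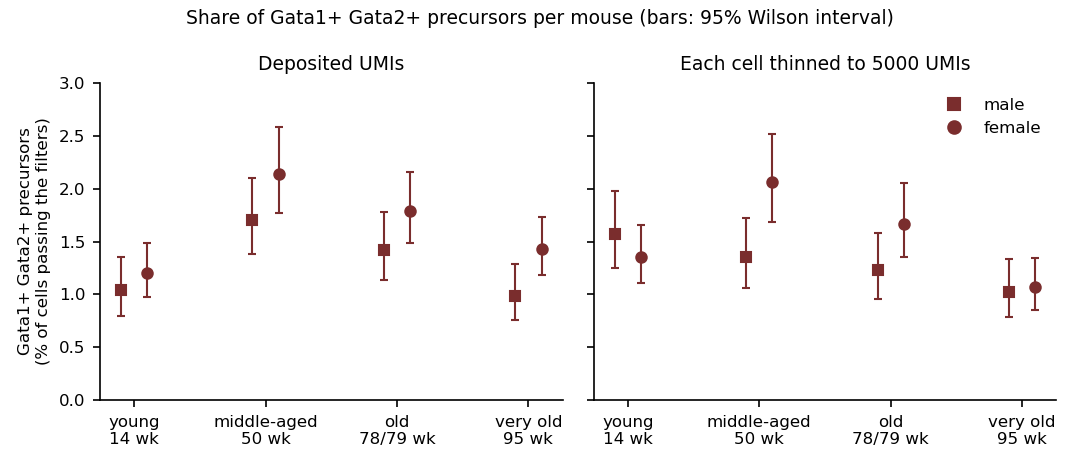
Share of members among filtered cells (percent) in each mouse, from deposited UMIs (left) and after thinning each cell to 5000 UMIs (right), with 95% Wilson intervals that cover counting error only. The middle-aged female has the highest share in both panels (2.14% and 2.06%), and the young mice move from the lower to the upper part of the range of the older mice.

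To ask which genes changed with age in these cells, the UMIs of the members were summed per mouse and fitted with edgeR's quasi-likelihood test on age group and sex, with Benjamini-Hochberg adjustment over the 8229 genes tested. Between older and young mice 3 genes rose and 4 fell (0.0365% and 0.0486% of genes, 0.0851% together), whereas 505 genes (6.14%) had an unadjusted p below 0.05. The genes that rose were Aldh1a1, Cavin2 and Plscr2, all 3 from the list of genes known to be raised in aged stem cells, which was compiled with earlier results of these data known. Lgals1, Ccnb2, Gm42418 and Gm26737 fell. Gata1, Gata2 and Apoe did not pass the test. Their log2 fold changes were 0.16 (SE 0.13), -0.05 (SE 0.12) and -0.10 (SE 0.07), although the rule itself bounds the first 2 from below.

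Aldh1a1 encodes a cytosolic aldehyde dehydrogenase that oxidises retinaldehyde to retinoic acid, and lies on chromosome 19 (chr19:20492715-20643465, GRCm38, plus strand). It was measured at 12.2, 9.39, 50.1, 42.7, 66.5, 68.8, 86.7 and 62.6 CPM. All 6 mice of 50 weeks or more lay above both young mice, without overlap. The mean was 71.1 ± 10.7 CPM (SD, n = 4) in older and 10.8 ± 2.01 CPM (n = 2) in young mice, with a log2 fold change of 2.75 (SE 0.28, adjusted p = 1.17e-07). At 50 weeks the log2 fold change over young mice was already 2.07 (SE 0.32, adjusted p = 0.000547). The call between older and young mice was lost under the stricter rule, which left 18 to 41 cells per mouse, with a log2 fold change of 2.0 and an adjusted p of 0.277. The call at 50 weeks was lost with DESeq2 (adjusted p = 0.133), after thinning (1.77, adjusted p = 0.0738) and under the stricter rule (1.26, adjusted p = 0.999).

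The Aldh1a1 transcripts were spread over many cells rather than held by a few. In the young mice 6 of 53 and 8 of 85 members had an Aldh1a1 UMI, compared with 38 of 85 and 34 of 105 in the middle-aged mice. The counts were 29 of 74, 37 of 108, 32 of 55 and 41 of 104 in the older mice. After thinning to 5000 UMIs the shares were 8.0%, 2.5%, 30.8%, 15.8%, 20.0%, 21.9%, 35.8% and 21.1% of members, with at most 1.3% of Mpo-high cells in any mouse. Members with a Klf1 UMI held 13.9 and 11.1 CPM in the young and 61.3 to 99.0 CPM in the older mice. Members without one held 6.7 and 7.2 CPM in the young and 56.1 to 76.2 CPM in the older mice. The higher level was therefore seen in both subsets, each without overlap between older and young mice. The young values rest on few counts, however. They come from 7 and 6 UMIs in members with a Klf1 UMI, and from 1 UMI in 15 cells and 3 UMIs in 40 cells without one.

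Cavin2, a coat protein gene of the caveolae that is also abundant in platelets (chr1:51289126-51302960, plus strand), lay at 27.5, 15.7, 46.3, 39.6, 76.4, 52.4, 42.6 and 36.2 CPM. Older mice did not overlap with young mice and were highest at 78 and 79 weeks. The log2 fold change was 1.29 (SE 0.26, adjusted p = 0.0239). This call was lost with DESeq2, after thinning (log2 fold change 0.57), under the stricter rule, without cells of high UMI counts, with equal numbers of members, with age in weeks as a slope, and when either young mouse, the old male or the very old female was left out.

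Plscr2, of the phospholipid scramblase family (chr9:92275602-92297752, plus strand), had 0 UMIs in both young mice, and 12, 4, 9, 9, 7 and 12 UMIs in the others. These counts came from 4 to 11 cells in each mouse that had any. Against a floor of 3 counts in each young library, the mean level of 11.7 CPM in older mice was at least 3.03-fold higher. The edgeR test, which does not use this floor, gave an adjusted p of 0.0282. With 0 UMIs in both young mice, the gene passed the low-count filter only through the other mice. Its direction was therefore fixed before the test. The middle-aged mice, at 11.3 and 3.05 CPM, did not pass the test against young mice (adjusted p = 0.29). The call was lost with DESeq2, without cells of high UMI counts, with age in weeks, and without either young mouse or the very old female. Plscr2 was also called higher in older than in young mice in Pf4-high cells (edgeR, log2 fold change 4.72, adjusted p = 0.00531) and Hlf+ cells (3.86, adjusted p = 0.0418). The young male and female held 50 and 63 Pf4-high cells and only 10 and 24 Hlf+ cells. The low-count filter applied there too, so these calls are given as a description and are no support for the direction in members. In Car1-high (1.49) and Mpo-high cells (3.12) it was not called.

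Lgals1 encodes galectin-1, a lectin that binds beta-galactosides (chr15:78926725-78930465, plus strand). Its levels were 323, 288, 183, 180, 218, 139, 184 and 109 CPM. Both young mice lay above all others. The log2 fold change was -0.92 (SE 0.13, adjusted p = 7.98e-05) in older and -0.77 (SE 0.15, adjusted p = 0.0161) in middle-aged mice. Between older and young mice the log2 fold change was also below 0 in Car1-high (-0.79), Pf4-high (-1.11), Hlf+ (-0.56) and Mpo-high cells (-0.15), without a call. The change in members differed from that in Car1-high cells by -0.16 (SE 0.22) and in Pf4-high cells by 0.19 (SE 0.28), neither of them called. In Mpo-high cells Lgals1 was at 842, 768, 485, 668, 760, 611, 847 and 624 CPM, and the part of free RNA from such cells in the members was not tested. The call in older mice was lost without the sex term (adjusted p = 0.106), under the stricter rule and without the young female. The call at 50 weeks was lost under these 3 settings as well, under the stricter rule with a log2 fold change of -0.0061, and with DESeq2, after thinning (-0.32) and without the middle-aged male.

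Ccnb2, the mitotic cyclin B2 gene (chr9:70407692-70421547, minus strand), was at 135, 121, 82.2, 67.8, 56.6, 43.7, 109 and 84.6 CPM. Its lowest levels were those of the old mice, and the very old male came closest to the young. The log2 fold change was -0.86 (SE 0.16, adjusted p = 0.00745). It was -0.86 with DESeq2, -0.85 after thinning, -0.73 with the stricter cell filter and -0.81 under the stricter rule. Without the young male it was -0.96, and without the young female -0.76. The call was lost with DESeq2, after thinning, with the stricter cell filter, under the stricter rule, with age in weeks, and without either young mouse.

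**Figure D3:**
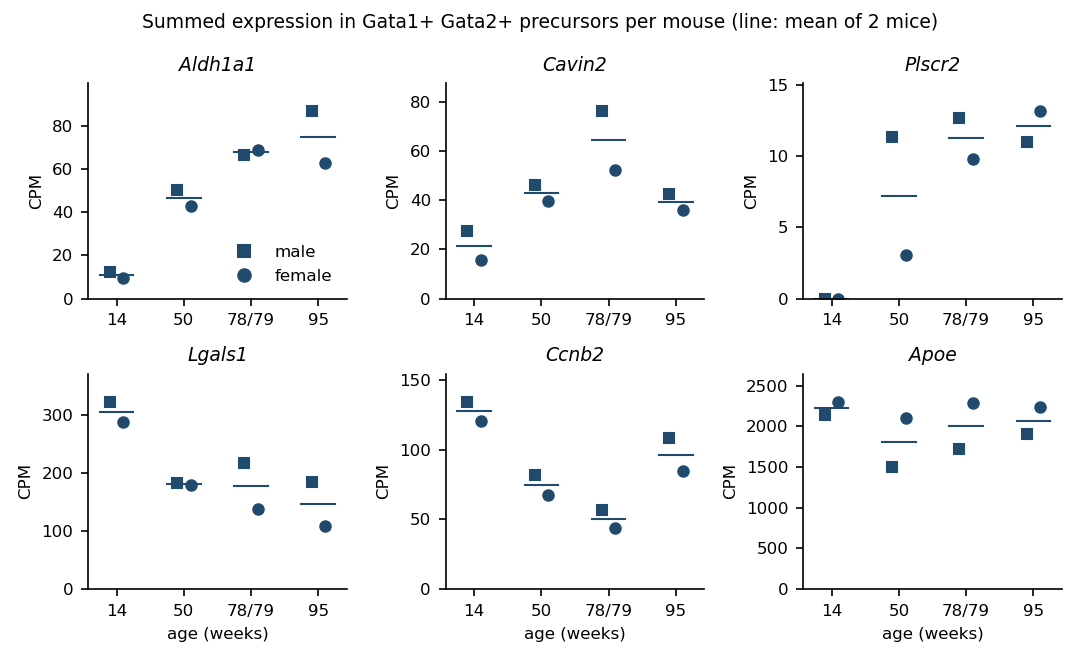
Levels (CPM, linear axes from 0) of the 5 named genes that changed between older and young mice and of Apoe, by age in weeks, where points are mice and lines the means of 2 mice. Aldh1a1 separates the young mice (12.2 and 9.39 CPM) from all others (42.7 CPM or more), whereas Apoe overlaps between ages.

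Both of the non-coding RNAs that fell are named after their values were seen. Gm26737, an antisense transcript on chromosome 9, had 38.2 and 27.1 CPM in the young mice, where 25 of 25 and 26 of 26 UMIs sat in 1 cell of each mouse, and at most 2.18 CPM in any other mouse. Its fall thus rested on 2 cells. Gm42418 on chromosome 17 was at 5061, 4457, 2891, 3100, 4068, 3598, 3263 and 2719 CPM (log2 fold change -0.46, adjusted p = 8.42e-06). A single cell held 937 of its 3309 UMIs in the young male. The log2 fold change was also below 0 in Car1-high (-0.44), Pf4-high (-0.21), Hlf+ (-0.25) and Mpo-high cells (-0.30), without a call. The change in members differed from that in Car1-high cells by -0.02 (SE 0.08) and in Pf4-high cells by -0.25 (SE 0.08), neither of them called. The call in members was lost with limits of 2000 UMIs and 5% mitochondrial UMIs (-0.26, adjusted p = 0.33), under the stricter rule (-0.12, adjusted p = 0.998) and with age in weeks. Another annotated transcript, AY036118, overlaps it on the opposite strand.

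The start regions of Aldh1a1 and Ccnb2 are shown because the first gene is annotated with 2 starts, only 1 of which holds the letters GATAA, one form of the GATA motif, and the second carries motifs known from mitotic genes. The sequences are RefSeq promoters of GRCm38.p6, each with 250 bases before and 50 after the start, written 5′ to 3′ on the strand of the gene. Capitals mark GATAA in Aldh1a1, and CCAAT (bound by NF-Y) and TTTGAA (the cell cycle homology region) in Ccnb2. The Aldh1a1 regions lie at chr19:20492333-20492632 and chr19:20601718-20602017 on the plus strand, and that of Ccnb2 at chr9:70421505-70421804 on the minus strand.
Aldh1a1 start 1: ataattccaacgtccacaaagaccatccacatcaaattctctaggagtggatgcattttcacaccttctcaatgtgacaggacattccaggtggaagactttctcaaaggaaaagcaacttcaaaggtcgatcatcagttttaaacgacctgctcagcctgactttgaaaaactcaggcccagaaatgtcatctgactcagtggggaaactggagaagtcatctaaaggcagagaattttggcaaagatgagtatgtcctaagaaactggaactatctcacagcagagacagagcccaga
Aldh1a1 start 2: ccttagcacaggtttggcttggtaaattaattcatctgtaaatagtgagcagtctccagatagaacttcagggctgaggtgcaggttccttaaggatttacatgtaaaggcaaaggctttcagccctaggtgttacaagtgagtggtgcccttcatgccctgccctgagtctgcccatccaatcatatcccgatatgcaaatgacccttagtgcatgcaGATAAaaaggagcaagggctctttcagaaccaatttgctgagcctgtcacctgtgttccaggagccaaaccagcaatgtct
Ccnb2: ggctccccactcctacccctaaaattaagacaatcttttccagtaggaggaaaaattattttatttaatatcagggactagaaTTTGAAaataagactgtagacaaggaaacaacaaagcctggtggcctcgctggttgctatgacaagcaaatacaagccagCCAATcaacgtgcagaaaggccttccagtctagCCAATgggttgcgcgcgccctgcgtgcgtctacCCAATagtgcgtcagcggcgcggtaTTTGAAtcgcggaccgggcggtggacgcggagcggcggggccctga
Start 1 of Aldh1a1 held no GATAA and start 2 held 1, Cavin2 held none, and Ccnb2 held 3 CCAAT and 2 TTTGAA. On either strand, GATAA (or TTATC) was found in 25.4% of 32851 such promoters, CCAAT (or ATTGG) in 37.4% and TTTGAA (or TTCAAA) in 17.9%, and none of these motifs contains another. A match is a description of the letters, not evidence of binding, and the UMI counts do not show which start was used.

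Between middle-aged and young mice 1 gene rose and 3 fell (0.0122% and 0.0365%, 0.0486% together), with 496 genes (6.03%) at an unadjusted p below 0.05. The rise was that of Aldh1a1, and the falls those of Lgals1, Gm42418 and Gm26737. Both comparisons share the young mice. Ccnb2 had a log2 fold change of -0.80 at 50 weeks (SE 0.17, adjusted p = 0.0505).

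From middle-aged to older mice 10 genes rose and 2 fell (0.122% and 0.0243%, 0.146% together), with 704 genes (8.56%) at an unadjusted p below 0.05. The rises included the mitochondrial genes mt-Atp6, mt-Co1, mt-Co2 and mt-Co3, with log2 fold changes of 0.33, 0.30, 0.29 and 0.25, the ribosomal protein genes Rpl39 and Rps24, and Rbm3. All 4 of the mitochondrial genes encode subunits of the respiratory chain or of ATP synthase, and the 2 very old mice had both the highest mitochondrial shares and the separate library series. The cell filter itself keeps mitochondrial UMIs under 10% of each cell, so these 4 calls are given as a description only. With limits of 2000 UMIs and 5% mitochondrial UMIs, mt-Co1, mt-Co2 and mt-Co3 were not called. Rbm3, a cold-inducible RNA-binding protein gene, was at 823, 650, 662, 358, 713, 630, 1144 and 754 CPM, lowest in the middle-aged female and highest in the very old male (log2 fold change 0.74, SE 0.11, adjusted p = 0.000361). These same 2 mice were the lowest and highest for Rbm3 in all 4 neighbouring populations, from 400 to 409 CPM and from 1128 to 1235 CPM, and without the middle-aged female or the sex term the call was lost. Hspa8, the constitutive Hsc70 chaperone gene, fell, with a log2 fold change of -0.38 (SE 0.08, adjusted p = 0.0187), as did the histone gene Hist1h4d (-0.71, SE 0.15, adjusted p = 0.0334). Both were called in only 4 of 10 alternatives, and were lost with DESeq2, without the sex term, after thinning, under the stricter rule and in the first library series. Without the middle-aged female neither was called, and Hist1h4d was also lost without the middle-aged male, the old male or the very old female. Of the named rises, Rps24 was called in 1 of 10 alternatives, Rpl39 and mt-Co3 in 4, mt-Co1 and mt-Co2 in 5, mt-Atp6 in 7 and Rbm3 in 9. In the first library series alone mt-Atp6, mt-Co2, mt-Co3, Rpl39 and Rps24 were not called. Rpl39 and Rps24 were lost without either middle-aged mouse, the old male or the very old female, and mt-Co3 without the middle-aged female, the old male or the very old female. The calls of mt-Co2 and mt-Atp6 were lost without the middle-aged female, and that of mt-Co1 without the middle-aged male. Between older and young mice, the log2 fold changes of the named rises were only 0.05 (mt-Co1) to 0.14 (Rbm3). Between middle-aged and young mice they were -0.60 (Rbm3) to -0.09 (Rps24). In the same 2 comparisons Hist1h4d had 0.15 and 0.86, and Hspa8 -0.31 and 0.08. None of these values was called. Both middle-aged mice lay below all others for mt-Co1, mt-Co2 and Rps24. They overlapped with other mice for mt-Atp6, mt-Co3, Rpl39, Rbm3, Hspa8 and Hist1h4d.

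Over the 4 ages 44 genes (0.535%) differed. Many of them did not move steadily with age. Jun and Jund, immediate-early transcription factor genes, were highest in old and lowest in very old mice. Jun was at 58.1, 104, 95.4, 114, 181, 169, 15.8 and 24.2 CPM (adjusted p = 3.59e-09) and Jund at 85.6, 120, 105, 122, 164, 147, 56.8 and 49.4 CPM (adjusted p = 0.000109). The call of Jund was lost in the first library series alone, under the stricter rule and with age in weeks, and that of Jun with age in weeks. The fall in the very old mice was also present in Car1-high cells, where Jun was at 9.81 and 10.6 CPM against 33.7 to 66.0 CPM in the other mice, and in Mpo-high cells, at 7.62 and 9.35 CPM against 23.3 to 51.8 CPM. The sum of 16 immediate-early genes in members was 205 and 208 CPM in the very old mice and 307 to 532 CPM in the others.

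Some genes of mitosis differed over the ages as well. Of 52 G2/M genes 6 did so, against 0.535% of all genes, among them Cenpa, a centromeric histone gene, Ube2c and Cdc20 of the anaphase-promoting machinery, and Hmgb2. Cenpa was at 190, 149, 95.4, 146, 67.9, 66.6, 158 and 152 CPM (adjusted p = 0.000174) and Ube2c at 210, 135, 104, 123, 58.0, 76.4, 203 and 182 CPM (adjusted p = 9.34e-06). In both, the 2 old mice were the lowest of all 8. The summed G2/M genes were at 6774, 6006, 6278, 5803, 3960, 5007, 6501 and 6982 CPM, again lowest in the old mice, which belong to the first library series. After thinning, the G2/M sum of older and young mice overlapped (exact permutation p = 0.80), as did the S-phase sum (exact p = 0.933). All 6 calls (with Cks2 and Ccnb2) were lost under the stricter rule and with age in weeks as a slope. Cdc20 was also lost with DESeq2, after thinning and without the old female. Ccnb2 was also lost with DESeq2 and Hmgb2 without cells of high UMI counts. Cks2 was called in 3 of 11 alternatives, and not without the young male or either old mouse. The 42 S-phase genes tested included no call over the ages.

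**Figure D4:**
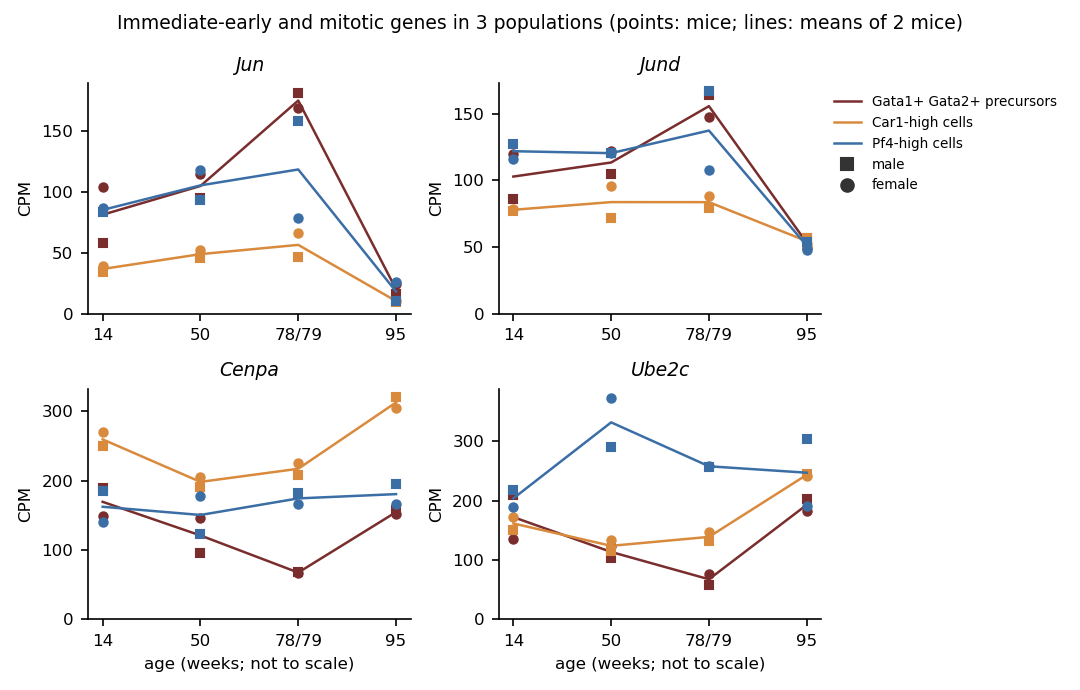
Levels (CPM) of Jun, Jund, Cenpa and Ube2c by age in weeks in members, Car1-high and Pf4-high cells, where points are mice and lines the means of 2 mice. Jun falls in very old mice in all 3 populations, whereas the low Cenpa and Ube2c of the old mice (58.0 to 76.4 CPM) appear in members.

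Elane and Gzmb, which belong to other lineages, also differed over the ages. Elane, the neutrophil elastase gene, was at 45.9, 37.6, 20.8, 40.4, 69.3, 64.4, 12.6 and 15.4 CPM in members. It was also lowest in the very old mice in Car1-high (5.90 and 13.3 CPM), Pf4-high (8.97 and 15.6 CPM) and Hlf+ cells (8.01 and 16.4 CPM), but not in Mpo-high cells, which hold 2968 to 7877 CPM. The part of free RNA in this was not tested. The call of Elane was lost with DESeq2, under the stricter rule and with age in weeks, and that of Gzmb with age in weeks. Gzmb, granzyme B of cytotoxic and mast cells, came from at most 5 members in each mouse, and a single middle-aged cell held 32 UMIs.

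The lineage lists were summarised beside all genes tested, of which 4094 had a log2 fold change above 0 and 4135 below 0 between older and young mice. Of 25 erythroid genes used, 14 passed the filter on low counts, none passed the test in either direction, and their median log2 fold change was -0.44. All 14 lay below 0, as they did between middle-aged and young mice, and this split was not tested. Both comparisons share the young mice. From middle-aged to older mice 8 lay above 0 and 6 below, with a median of 0.04. Between older and young mice, Rhd, a Rh blood group gene, had the most negative value of the 14 (-2.15, SE 0.51, adjusted p = 0.101). The values of Hbb-bt, a beta-globin gene, and Klf1 were -1.27 and -0.32. Summed over the 25 genes, thinned members held 1412, 1488, 974, 1360, 1143, 1106, 1208 and 1111 CPM. The 4 older mice lay below both young mice (exact permutation p = 0.0667, the smallest possible, and adjusted p = 0.583 over 35 measures). Among all genes, the levels of the same 2 groups did not overlap in 13.5% of cases, and among the 35 measures in 6 (17.1%).

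Of 24 megakaryocyte genes used, 10 passed the filter, only Cavin2 rose, none fell, and the median log2 fold change was 0.12. Gng11, a G-protein gamma subunit gene of platelets, had a value of 0.71 (SE 0.21, adjusted p = 0.38). The 10 genes shared by early precursors of both lineages included no call between older and young mice. Pdzk1ip1, the gene of MAP17, which is used to mark early progenitors, differed over the 4 ages (adjusted p = 0.0338), with 24.5, 35.5, 39.7, 31.3, 73.5, 57.9, 47.3 and 64.8 CPM. It was called in 5 of 11 alternatives, and not without the young male, the middle-aged female or the old male.

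None of 17 tested factors of the GATA network, without Gata1 and Gata2, changed in any of the comparisons, and their median was 0.00 between older and young mice. Tal1 and Lmo2, which form a complex with GATA factors, ranged from 60.8 to 99.1 CPM and from 336 to 492 CPM over the 8 mice. Gfi1b, a repressor needed in both lineages, had a log2 fold change of -0.44 (SE 0.17, adjusted p = 0.66), and Runx1 one of 0.46 (SE 0.16, adjusted p = 0.64). Of 21 cytokine receptor genes 13 passed the filter and none was called, with a median of 0.17. Kit, the receptor by which the cells were sorted, lay between 110 and 168 CPM. The 16 tested genes of haem synthesis and iron (median -0.15) and the 22 interferon response genes (median 0.27) held no call between older and young mice.

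Of 28 genes reported as raised in aged stem cells, 8 passed the filter in members. The 3 that rose are Aldh1a1, Cavin2 and Plscr2, and over all genes tested 0.0365% rose. Nupr1, a stress-response gene, had a log2 fold change of 2.82 (SE 0.62, adjusted p = 0.06), and Clca3a1 one of 1.55 (SE 0.56, adjusted p = 0.64). Nupr1 was at 0 and 4.17 CPM in young mice and 11.4 to 24.6 CPM in the others. Apoe, Mt1 and Mt2 from the same list had values of -0.10, 0.21 and -0.07. Since a gene that is low in young cells passes the filter only through the older mice, neither the count nor the median of this list is support for its direction.

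The Aldh1a1 change was then compared with the neighbouring populations, in which the share of genes called between older and young mice was 0.147% (Car1-high), 0.122% (Pf4-high), 0.355% (Hlf+) and 0.189% (Mpo-high). In Pf4-high cells Aldh1a1 was at 16.2, 17.8, 67.7, 85.2, 129, 83.5, 114 and 74.7 CPM, and in Hlf+ cells at 5.38, 15.3, 70.2, 85.1, 77.0, 75.2, 98.1 and 72.6 CPM. In Car1-high cells the levels were 31.3, 45.4, 51.3, 48.7, 48.9, 54.3, 66.0 and 60.7 CPM. The young mice thus stood apart in members, Pf4-high and Hlf+ cells, and less in Car1-high cells, whose young mice were above those of the other 3. The Hlf+ values of the young male and female come from only 10 and 24 cells. Mpo-high cells stayed at or below 2.47 CPM. In a fit with the mouse as block, the older-versus-young log2 change was larger in members than in Car1-high cells by 2.19 (SE 0.32, adjusted p = 5.79e-07). The difference from Pf4-high cells was 0.21 (SE 0.45, adjusted p = 1.0), which does not show that the changes are equal. The difference from Car1-high cells was no longer called after thinning (1.19), under the stricter rule (1.36), or without the young female.

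**Figure D5:**
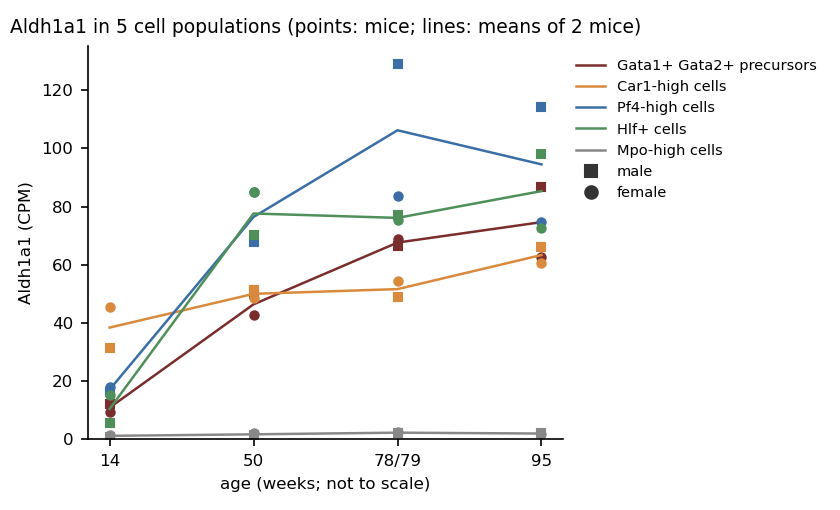
Aldh1a1 (CPM) by age in weeks in members and 4 neighbouring populations, where points are mice and lines the means of 2 mice. Levels in members rise from 9.39 to 12.2 CPM in young mice to 62.6 to 86.7 CPM in older mice, while Car1-high cells start at 31.3 and 45.4 CPM.

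The change with age differed from that of Car1-high cells for 14 of 11488 genes (0.122%) and from that of Pf4-high cells for 2 of 8685 genes (0.023%). The log2 change of Cavin2, Prtn3 (a neutrophil serine protease gene) and Pkm (pyruvate kinase of glycolysis) was higher in members than in Car1-high cells. That of Rhd, Ube2c and Cenpa was lower. Cavin2 was at only 1.47 to 4.78 CPM in Car1-high cells. Pkm was not called in members (edgeR, log2 fold change 0.35, adjusted p = 0.639), whereas it fell in Car1-high cells (-0.57, adjusted p = 0.0197). The difference for Pkm turned to -0.216 after thinning. Of 8 alternatives, the call was kept in 4 for Prtn3, Pkm and Ube2c, in 3 for Cavin2 and Cenpa and in 1 for Rhd. It was lost for Ube2c and Cenpa without the young male, for Cavin2 without either young mouse or the old male, and for Rhd without the young female, the old female or the very old female. For Prtn3 the members lay between 99.3 and 223 CPM, and the Car1-high cells of the very old mice were the lowest of their population, at 16.1 and 25.3 CPM against 52.8 to 74.6 CPM. Cenpa and Ube2c were also the 2 genes that differed from Pf4-high cells, by -0.87 and -0.86 (adjusted p = 0.0226 for each). Against Pf4-high cells, Cenpa was called in 2 and Ube2c in 4 of 8 alternatives, and both were lost without the young male, either old mouse or the very old male, and Cenpa also without the young female. In Pf4-high cells of the old mice, Cenpa was at 182 and 167 CPM and Ube2c at 257 and 259 CPM, above the levels of the members in the same mice.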

How the data were processed

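Raw UMI counts per gene and cell of 8 libraries were deposited by the authors, who had used Cell Ranger with the mm10 build. The matrix headers name version 6.0.0. Cells with 1000 or more UMIs and under 10% of UMIs in mitochondrial genes were kept, and the members were chosen by the rule given at the start. The rule, the gene lists and the tests were chosen with earlier results of these data known. Counts of the members were summed per mouse and tested with edgeR 4.0.16 (R 4.3.3, TMM, filterByExpr, robust quasi-likelihood F test) on age group and sex, with a threshold of 0.05. Older versus young was the mean of old and very old minus young. DESeq2 1.42.0 was an alternative. CPM are not TMM-scaled. For shares and composition, exact permutation tests (two-sided) without sex were used. The scripts were tested on simulated data. Nothing in the labels pairs mice, and replicates are separate mice.

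Named genes were Gata1, Gata2, Apoe, the list genes called in a comparison (at most 5 a list), and the largest rises and falls among called genes of 10 CPM or more without overlap, leaving out sex-linked, mitochondrial and unnamed genes. Other genes were chosen after their values were seen. No doublet caller was run, and cells over 2 times the median UMIs were left out in an alternative. Intervals and floors of 3 counts cover counting error only. Coordinates are from GENCODE vM21 (GRCm38), and promoters from RefSeq, which matched 3 of 5 genes looked up.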

Additional observations from a re-analysis of the deposited data

Results flagged for a closer look

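The older-versus-young change of 16 gene and neighbour pairs differed between members and a neighbouring population in the interaction test, which was fitted with the mouse as block. Against Car1-high cells, the log2 change in members was higher by 2.19 for Aldh1a1, 1.72 for Cavin2, 1.05 for Prtn3, 0.908 for Pkm, 0.896 for Serpinb1a, 0.666 for Tmem176b, 0.664 for Fam117a, 0.596 for Ctla2a and 0.372 for Malat1. It was lower for Ncl (-0.390), Cenpa (-0.727), Ube2c (-0.749), Rhd (-1.88) and Gm26737 (-7.22). Against Pf4-high cells it was lower for Cenpa (-0.869) and Ube2c (-0.863).

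Pkm, the pyruvate kinase gene, was at 143 to 267 CPM in members, and in Car1-high cells at 12.0 and 13.1 CPM in the very old mice against 27.97 to 44.0 CPM in the other 6. Tmem176b, which encodes a membrane protein, was at 12.6 and 12.7 CPM in the Car1-high cells of the very old mice and at 23.5 to 35.9 CPM in the others. Of 8 alternatives, Fam117a and Ncl were called in 1, Malat1, Serpinb1a and Tmem176b in 2 and Ctla2a in 3. Of the 8 fits that leave out 1 mouse, Fam117a was called in 2, Serpinb1a and Tmem176b in 4, Malat1 in 5 and Ncl and Ctla2a in 6. Leaving out the young male ended the call for each of these genes apart from Ncl, which was lost without the young female or the very old female. Other losses were without the very old female for Ctla2a, without the young female or the old male for Malat1, without these 2 or the very old female for Serpinb1a, and without the old male or either very old mouse for Tmem176b. Fam117a was called only without the middle-aged male or the old female. With the first library series alone, the differences of Ctla2a and Tmem176b changed sign. The difference of Gm26737 rested on 1 cell in each young mouse. Dixon's rule flagged no single mouse among the 4 older mice in the 22 sets of values examined. With 4 values that pool old and very old mice, the rule has little power and cannot flag a split between these ages. It therefore does not show that no mouse drives a result.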

How the results depend on the processing

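For Aldh1a1, the rise in older mice was called in 10 of 11 alternatives and with each of the 8 mice left out, and Lgals1 in 9 of 11 and 7 of 8. The counts of calls moved more, and the cause was not tested. Over the 4 ages, the 44 calls became 14 with DESeq2, 120 without the low-count filter, 24 without the sex term, 11 under the stricter rule, 76 with equal numbers of members, 67 with the first library series only and 4 with age in weeks. Rises in older mice (3) became 1 with DESeq2, 13 without the filter, 0 under the stricter rule, 1 without cells of high UMIs and 13 in the first series. Falls (4) became 8 without the filter, 7 after thinning, 1 with 2000 UMIs and 5% mitochondrial UMIs as limits, 1 under the stricter rule, 12 with equal numbers, 17 in the first series and 2 with age in weeks. For middle-aged mice the 4 calls became 1, 25, 11, 12, 1, 12 and 26 with DESeq2, without the filter, after thinning, with the stricter cell limits, under the stricter rule, with equal numbers and in the first series. From middle-aged to older mice the 12 calls became 2, 30, 3, 5, 3, 22 and 44 under the same settings, and 3 without the sex term.

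The 14 differences from Car1-high cells became 4 with DESeq2, 3 after thinning, 2 with the stricter cell limits, 0 under the stricter rule, 7 without cells of high UMIs, 6 in the first series and 7 without the 2 cells rich in Gm26737, an alternative added after seeing the data. The 2 differences from Pf4-high cells became 0, 0, 4, 0, 0, 12 and 1 in the same order. With 1 mouse left out at a time, where a lone mouse of an age was assumed to vary like the others, the counts ranged from 55 to 114 over the ages, from 1 to 19 for rises, from 3 to 9 for falls, from 5 to 27 at 50 weeks, from 9 to 35 after it, from 6 to 57 against Car1-high and from 0 to 8 against Pf4-high cells.

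The difference in member share turned to -0.216 percentage points after thinning and -0.0496 under the stricter rule, was 0.484 in the first series, and ranged from 0.160 to 0.426 with 1 mouse left out. Of the 35 measures of composition, 6 did not overlap after thinning, 10 without it, 17 in the first series and 6 to 14 with 1 mouse left out. For single genes, the sign changed for Jun in older mice (1.08) and the differences of Ctla2a (-0.0558) and Tmem176b (-0.0418) in the first series, for Pkm after thinning (-0.216), and for Gm26737 without cells of high UMIs (3.09) or without the 2 cells (3.73). Over the genes named in the text, 490 values kept direction and side of the threshold, 146 fell short of it, 36 came to pass it and 6 changed sign. Between ages, no paired analysis was possible because the mice are separate and the labels give them no replicate numbers. The interaction tests compared 2 populations within each mouse. Between 8106 and 12053 UMIs per median member limit what single cells can show.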

Other observations

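The adult beta-globin genes were low in members, with Hbb-bs at 0 to 12.5 CPM and Hbb-bt at 2.83 to 22.96 CPM over the 8 mice, whereas 19 genes of haem synthesis and iron summed to 3043 to 3648 CPM. Vwf, the von Willebrand factor gene, lay between 1.5 and 17.0 CPM in members and at 41.8 CPM or more in Pf4-high cells.

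Among genes that differed over the ages in members, Itgb7, an integrin chain that mast cell progenitors use to home to tissues, was at 44.4, 29.2, 15.1, 11.4, 26.9, 27.3, 12.6 and 7.69 CPM. It was not called with DESeq2, after thinning, with age in weeks or without the young male. Esam, an endothelial and stem cell adhesion gene, had 0 and 5.22 CPM in the young mice and 9.88 to 19.8 CPM in the others, with a log2 fold change of 2.16 between older and young mice that did not pass the test (SE 0.61, adjusted p = 0.31). A gene this low in the young mice passes the low-count filter only through the others, so the value is no support for a direction.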
